A study of Mus musculus with 2 samples.

Results

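The genes described here were 6 matrix metalloproteinases (MMPs), Mmp2, Mmp9, Mmp12, Mmp13, Mmp14 and Mmp19, and 2 tissue inhibitors of metalloproteinases, Timp1 and Timp2. They were taken by symbol, and all 8 were found among the 31053 features of the count matrix, which holds 26 genes with an Mmp or Timp symbol. The cells came from tumors grown under the skin from Lewis lung carcinoma (LLC) cells, a mouse lung cancer line, in C57BL/6 mice aged 8 to 12 weeks that were either Smad3-wildtype (Smad3+/+, Smad3-WT) or Smad3-deficient (Smad3-/-, Smad3-KO). Cells sorted as CD11b+Ly6G+ tumor-associated neutrophils were pooled over tumors and made into 1 droplet library per genotype with a 10x 5' kit, so there was no replicate, no test of genotype was possible, and every interval below is a 95% interval for counting error only.

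MMPs are zinc-dependent proteases that are made as inactive proenzymes and cut collagens, elastin and other matrix proteins, while Timps bind their active sites. Tumor stroma and infiltrating myeloid cells are known sources of these enzymes, and neutrophils store MMP-9 in granules and release it without Timp-1. MMP-14 sits in the cell membrane and, together with Timp-2, activates proMMP-2.

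The Smad3-WT library held 4116 barcodes with 23951400 UMIs (unique molecular identifiers, each counting 1 captured transcript), and the Smad3-KO library 2514 barcodes with 4214290 UMIs. After filtering, 3520 Smad3-WT and 2433 Smad3-KO cells remained, with medians of 1319 and 1199 UMIs, and 73 barcode sequences occurred in both libraries. Of the 14 clusters, 13 were named from marker genes, and they showed that the sort held more than neutrophils. The share of neutrophil-like cells was 51.5% in Smad3-WT and 43.8% in Smad3-KO, and that of macrophage or monocyte-like cells 29.0% and 1.89%. B cell-like cells made up 0.199% and 28.4%, T or NK-like cells 1.48% and 17.3%, LLC carcinoma-like cells 9.26% and 1.03%, fibroblast-like cells 1.31% and 2.75%, and dendritic-like cells 0.597% and 1.60%. Cluster 9, with 6.65% and 3.12% of cells, was led by MHC class II genes and the dendritic marker Mgl2, with no macrophage marker among its 10 leading genes, and was left unnamed. It met 4 macrophage or monocyte markers (C1qb, Csf1r, Trem2 and Ccr2) and 2 dendritic markers. The macrophage or monocyte list summed to 5854 CPM in Smad3-WT and 7334 CPM in Smad3-KO, and the dendritic list to 1309 and 1046 CPM. A first pass had named this cluster macrophage or monocyte-like. Both values are given where counting it with the macrophage or monocyte-like cells changed a count of members or a member's direction. For directions this holds for members with at least 20 UMIs. The libraries also differed in Xist, an RNA made from the inactive X chromosome, at 0.657 CPM (UMIs per 1000000 UMIs of a group) in Smad3-WT and 471 CPM in Smad3-KO. Mice of both sexes were used in the study, the sexes in each pool were not given in the sources used here, and effects of sex and genotype cannot be told apart, and Timp1 is on the X chromosome. Smad3 itself stood at 14.6 and 77.4 CPM, which checks nothing about the knockout, since the allele is disrupted near its 3' end and 5' tags can come from the rest of the transcript.

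Mmp12 and Mmp13 lie next to each other on chromosome 9 in GRCm38 (mm10), on the plus strand, Mmp13 at 7272514 to 7283331 and Mmp12 at 7344381 to 7369499. They are the first genes of a run of 10 Mmp genes over 427 kb with 0 other protein-coding genes between them. Because both were highest in the same cell class, the 250 bases upstream of each RefSeq start are shown (GRCm38.p6, plus strand, 5' to 3'). Capitals mark TGANTCA, the AP-1 motif, which was searched on both strands and occurred in 6.75% of 32851 such windows. The windows lie at chr9:7344147-7344396 for Mmp12 and chr9:7272264-7272513 for Mmp13.
Mmp12: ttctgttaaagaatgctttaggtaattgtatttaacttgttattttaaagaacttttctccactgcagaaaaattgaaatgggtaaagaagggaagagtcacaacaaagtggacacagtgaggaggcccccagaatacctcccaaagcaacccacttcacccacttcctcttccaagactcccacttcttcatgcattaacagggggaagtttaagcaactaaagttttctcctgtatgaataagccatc
Mmp13: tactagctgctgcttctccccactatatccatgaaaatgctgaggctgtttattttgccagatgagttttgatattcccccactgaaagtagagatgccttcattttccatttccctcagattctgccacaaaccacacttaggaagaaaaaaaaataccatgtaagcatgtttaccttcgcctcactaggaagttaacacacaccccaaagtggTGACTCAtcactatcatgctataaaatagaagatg
The Mmp13 window holds 1 match, with its first base 35 bases before the start, and the Mmp12 window holds none. A second RefSeq window of Mmp12, for a start 2993 bases downstream of the GENCODE start, holds 1 match, 44 bases before its start. The Smad box CAGACA was found in 17.1% of all windows and in none of the windows of the 5 members for which one was given, which says only that these letters are absent from those windows.

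Mmp9, gelatinase B, had the highest level of the members in neutrophil-like cells. In Smad3-WT neutrophil-like cells 1926 UMIs gave 1170.3 CPM (1119 to 1224), and 47.7% of 1813 cells had at least 1 UMI. In Smad3-KO neutrophil-like cells 508 UMIs gave 401 CPM (367 to 437), and 22.1% of 1066 cells had at least 1. The Smad3-KO level was 0.342 times the Smad3-WT level (0.310 to 0.378), and the intervals of the levels did not overlap. When every cell was thinned to 500 UMIs, 35.5% of Smad3-WT and 14.1% of Smad3-KO cells kept a UMI of Mmp9.

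**Figure D1:**
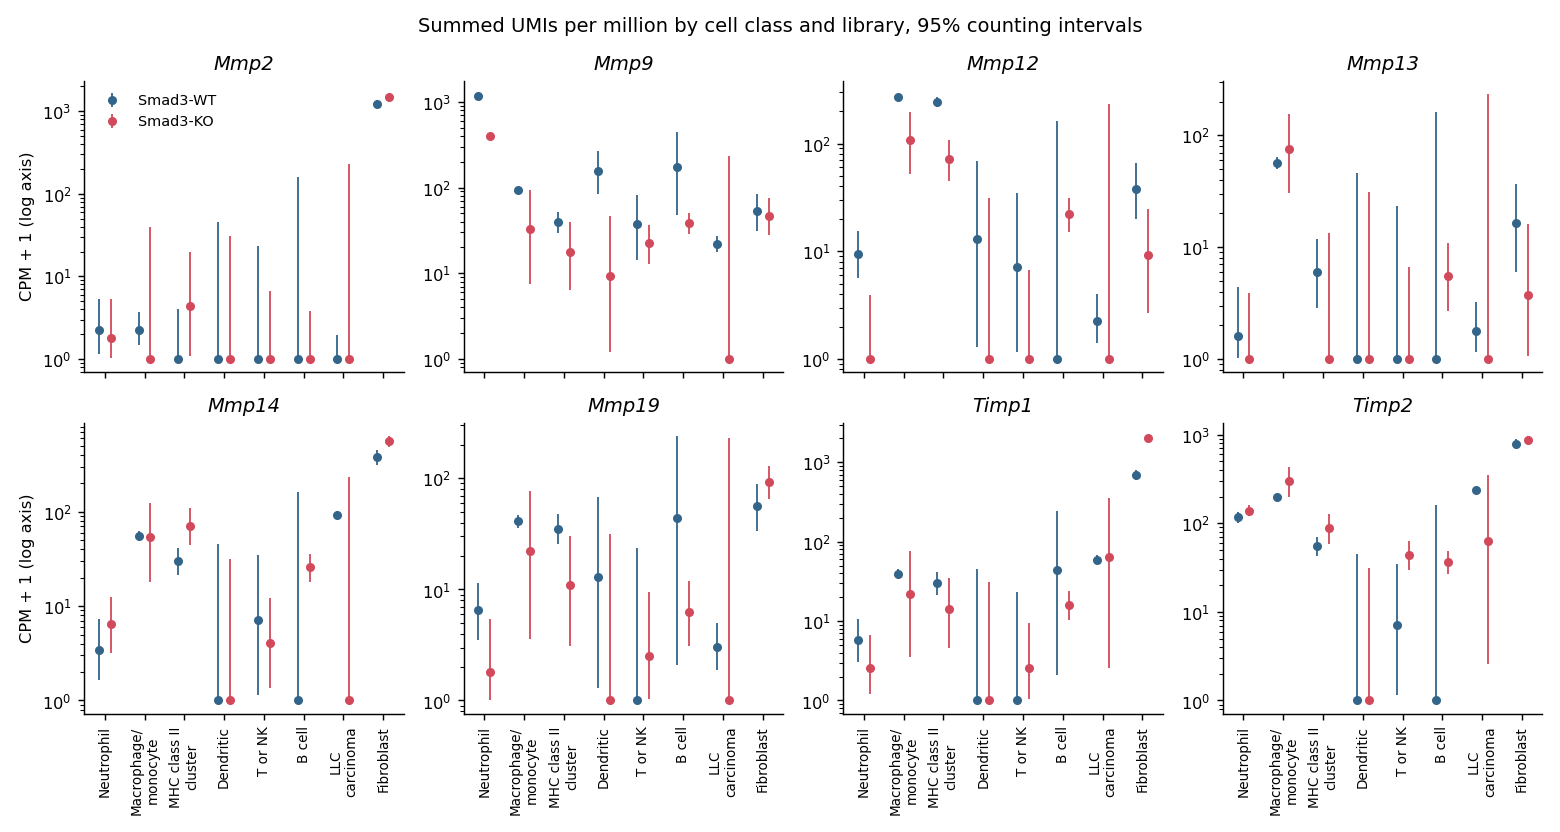
Level of each of the 8 genes in 8 groups of cells (x axis), as CPM plus 1 on a log axis, with blue points for Smad3-WT, red points for Smad3-KO and bars for 95% counting intervals. Mmp9 was highest in neutrophil-like cells, Mmp12 and Mmp13 in macrophage or monocyte-like cells, and Mmp2, Mmp14, Mmp19, Timp1 and Timp2 in fibroblast-like cells.

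The 5 neutrophil-like clusters were filled unevenly by the 2 libraries, and Mmp9 differed among them. Cluster 10, which was formed without the Mmp genes and had Mmp9, Slfn1 and Scimp among its leading genes, held 262 Smad3-WT and 8 Smad3-KO cells and had the highest Smad3-WT level of a cluster with over 100 cells, 2569.6 CPM (2342.5 to 2813), with Mmp9 in 71.0% of its cells. Cluster 1, led by G0s2 and Il1r2, held 1193 Smad3-WT cells at 1092 CPM and 71 Smad3-KO cells at 502 CPM. Cluster 8, led by the stress genes Ddit3 and Hilpda, held 326 Smad3-WT cells at 568 CPM.

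Most Smad3-KO neutrophil-like cells, 858 of 1066, were in cluster 2, led by Il1a, Tnfaip3 and Lcn2, where Mmp9 stood at 177 CPM (152 to 205), against 673 CPM (368 to 1129) in the 27 Smad3-WT cells there. Cluster 12, led by the granule genes Camp, Ngp and Ltf, held 121 Smad3-KO and 5 Smad3-WT cells. Its 121 cells were 11.4% of the Smad3-KO neutrophil-like cells and held 301 UMIs of Mmp9, 59.3% of the Smad3-KO total, at 1535 CPM (1366 to 1718). Its level in the 5 Smad3-WT cells was 1940.1 CPM from 7 UMIs. Within clusters, the Smad3-KO level was 0.460 times the Smad3-WT level in cluster 1 (0.293 to 0.687), 0.262 times in cluster 2 (0.152 to 0.490), 0.620 times in cluster 8 (0.0744 to 2.28), 0.164 times in cluster 10 (0.0198 to 0.596) and 0.791 times in cluster 12 (0.379 to 1.98). The values of clusters 8 and 10 rest on 2 Smad3-KO UMIs each, and that of cluster 12 on 7 Smad3-WT UMIs. The median quotient of 1606 genes in these cells was 0.809 (log2 -0.31), and scaled to it the Mmp9 quotient was 0.423. Without cluster 12 the quotient over neutrophil-like cells was 0.165. Camp, Ngp and the other neutrophil precursor markers summed to 45.0 CPM in Smad3-WT and 7577 CPM in Smad3-KO neutrophil-like cells, and their part in the Mmp9 values was not tested.

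**Figure D2:**
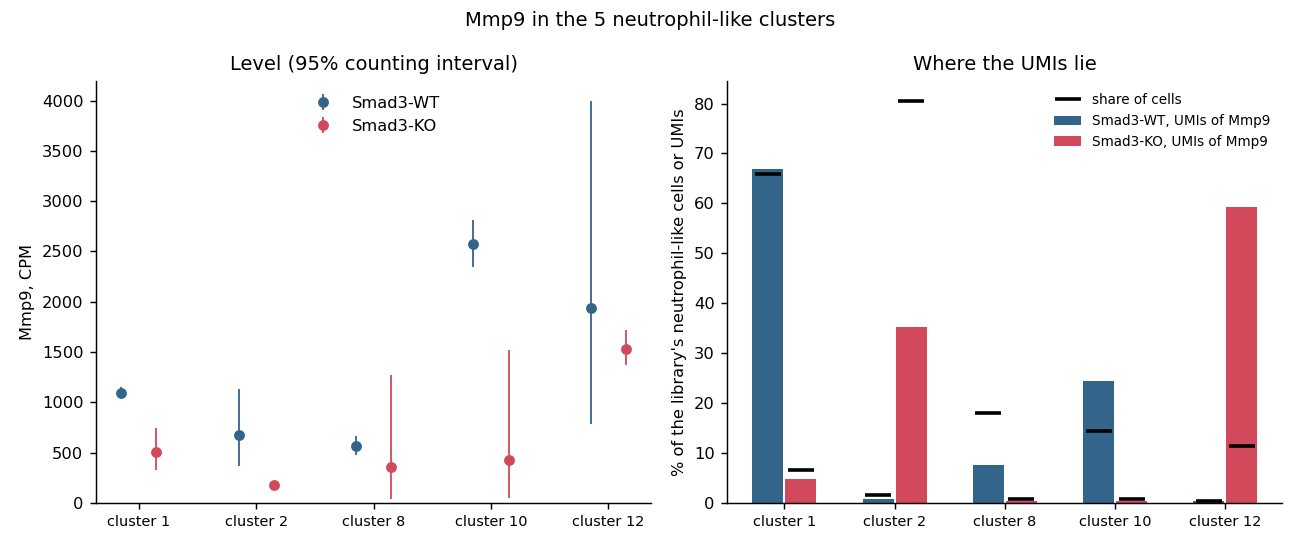
Mmp9 in the 5 neutrophil-like clusters (x axis, by cluster number), with Smad3-WT in blue and Smad3-KO in red. The left panel gives CPM with 95% counting intervals, and the right panel the share of each library's neutrophil-like Mmp9 UMIs (bars) and cells (black lines); cluster 12 held 11.4% of the Smad3-KO cells and 59.3% of the UMIs.

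Outside neutrophil-like cells Mmp9 lay within the range of the neutrophil markers in every group except Smad3-KO dendritic-like cells. There it was below, from 1 UMI in 39 cells. Its place says little where UMIs were few. Smad3-KO LLC carcinoma-like cells held 0, Smad3-KO macrophage or monocyte-like cells 3 and Smad3-WT B cell-like cells 4. In Smad3-WT macrophage or monocyte-like cells Mmp9 stood at 91.9 CPM, 0.0785 times its neutrophil-like level, where the 13 neutrophil markers stood at 0.0579 to 0.160 times theirs. In Smad3-WT LLC carcinoma-like cells the quotient was 0.0181, against 0.00939 to 0.0240 for the markers, and in Smad3-KO B cell-like cells 0.0940, against 0.0745 to 0.252. In Smad3-KO fibroblast-like cells it was 0.115, within a range of 0.0107 to 0.327 but above the markers' median of 0.0308. The upper end of that range was Lcn2, which stood at 111 CPM in Smad3-WT and 2873 CPM in Smad3-KO fibroblast-like cells. Whether these UMIs came from neutrophils was not tested. Of the Mmp9 UMIs of the filtered cells, 75.9% in Smad3-WT (74.2 to 77.6) and 84.9% in Smad3-KO (81.8 to 87.7) were in neutrophil-like cells.

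The collagenase Mmp8 and the membrane-type Mmp25, which neutrophils also make, were the other family genes with at least 20 UMIs in neutrophil-like cells. Mmp8 stood at 116 CPM in Smad3-WT and 198 CPM in Smad3-KO, a quotient of 1.71 (1.41 to 2.07), and 215 of its 251 Smad3-KO UMIs were in cluster 12, at 1096 CPM. In cluster 2 Mmp8 was at 27.6 CPM. Mmp25 stood at 11.5 and 22.9 CPM. Lcn2, whose product binds MMP-9, stood at 597 and 8780.4 CPM, 14.7 times higher in Smad3-KO (13.8 to 15.7).

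Of the UMIs of Mmp12, macrophage elastase, in filtered Smad3-WT cells, 80.1% were in macrophage or monocyte-like cells. There 1300 UMIs in 1021 Smad3-WT cells gave 270.3 CPM (256 to 285). The 46 Smad3-KO cells of the class held 10 UMIs in 4 cells, 106 CPM (50.7 to 195), a quotient of 0.391 (0.187 to 0.722). The class came from clusters 3 (Ccl8 and Pf4, 628 and 30 cells) and 6 (Ms4a4c and Chil3, 393 and 16 cells). All 10 Smad3-KO UMIs were in cluster 3, where the quotient was 0.5995 (0.287 to 1.106), an interval that includes 1. Cluster 6 held 86 Smad3-WT UMIs and 0 Smad3-KO UMIs. The part of the mix of clusters 3 and 6 in the class quotient was not tested. The quotient of the class was 0.789 with no filter on cells and 0.768 with another seed of the clustering. It was 0.216 without the subclusters led by neutrophil or carcinoma genes. In cluster 9, 290 UMIs in 234 Smad3-WT cells gave 242 CPM and 21 UMIs in 76 Smad3-KO cells gave 70.4 CPM, a quotient of 0.291 (0.177 to 0.453). The transcript was confined to few cells, since 13.7% of the 1021 cells had a UMI and 11 cells held 50% of the UMIs, with 140 in 1 cell. Among the 7 members with at least 20 UMIs in this class, 2, Mmp9 and Mmp12, were lower by 2 times or more in Smad3-KO and 0 were higher, where 25.3% of 9618 genes were lower and 17.8% were higher. In Smad3-KO, 28 of the 62 UMIs of Mmp12 were in cluster 11 of the B cell-like cells, which also held 4 neutrophil and 2 macrophage markers. With 46 cells in 1 library these shares of all genes are themselves large, and the lower count rests in part on Mmp9, most of whose UMIs here lay in a subcluster with neutrophil genes. With cluster 9 in the class, 1255 and 122 cells, 5 of the 7, Mmp9, Mmp12, Mmp13, Mmp19 and Timp1, were lower, where 13.7% of 10159 genes were, and 0 were higher, where 12.1% were. The quotients of Mmp19 and Timp1 were then 0.327 (0.105 to 0.773) and 0.419 (0.152 to 0.927), from 5 and 6 Smad3-KO UMIs. Cluster 9 gave 234 of the 1255 Smad3-WT cells but 76 of the 122 Smad3-KO cells. The mix of clusters thus differed between the libraries, and its part in these quotients was not tested.

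Mmp13, the rodent interstitial collagenase, was also highest in macrophage or monocyte-like cells. Its 267 Smad3-WT UMIs in the class gave 55.5 CPM (49.1 to 62.6), and all 7 Smad3-KO UMIs were in 1 cell, 74.1 CPM (29.8 to 153). The quotient was 1.33 (0.531 to 2.79), and with the cells of cluster 9 added to the class it was 0.392 (0.156 to 0.819), the other direction. Within cluster 3 the quotient was 2.74 (1.09 to 5.76). Clusters 6 and 9 held 81 and 6 Smad3-WT UMIs and 0 Smad3-KO UMIs. The part of the mix of clusters in these values was not tested. Of the Mmp13 UMIs in Smad3-WT cells, 94.7% were in macrophage or monocyte-like cells, and Mmp13 was in 7.64% of those cells.

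The macrophage or monocyte-like cells were split into 6 subclusters, nearly all from Smad3-WT, and the members separated among them. Mmp12 was highest in subcluster 3, led by Ppbp and Ccl24, at 995 CPM (918 to 1075), where Arg1 stood at 3101 CPM. That subcluster met 1 macrophage marker, Pf4, and had Mmp12 among its 10 leading genes. Mmp13 was highest in subcluster 6, led by interferon-response genes, at 288 CPM (233 to 353), ahead of 131 CPM in subcluster 3. Timp2 was highest in subcluster 4, led by Ccl8 and Folr2 with C1qa at 3319 CPM, at 549 CPM (501 to 601). In subcluster 2, with the monocyte genes Chil3, Vcan and Ccr2 among its leading genes, Mmp12 stood at 18.7 CPM, Mmp13 at 0 UMIs (upper bound 5.30 CPM) and Mmp19 at 74.7 CPM (55.8 to 98.0). Subcluster 1 was led by neutrophil genes and subcluster 5 by LLC carcinoma genes, and they held 62.0% and 24.9% of the class's Mmp9 UMIs. Subcluster 5 also held 40.9% of the class's Mmp14 UMIs, at its highest level of 81.2 CPM, 38.2% of Timp1 and 36.0% of Timp2. Doublets were not removed, and their part in those 2 subclusters was not tested.

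**Figure D3:**
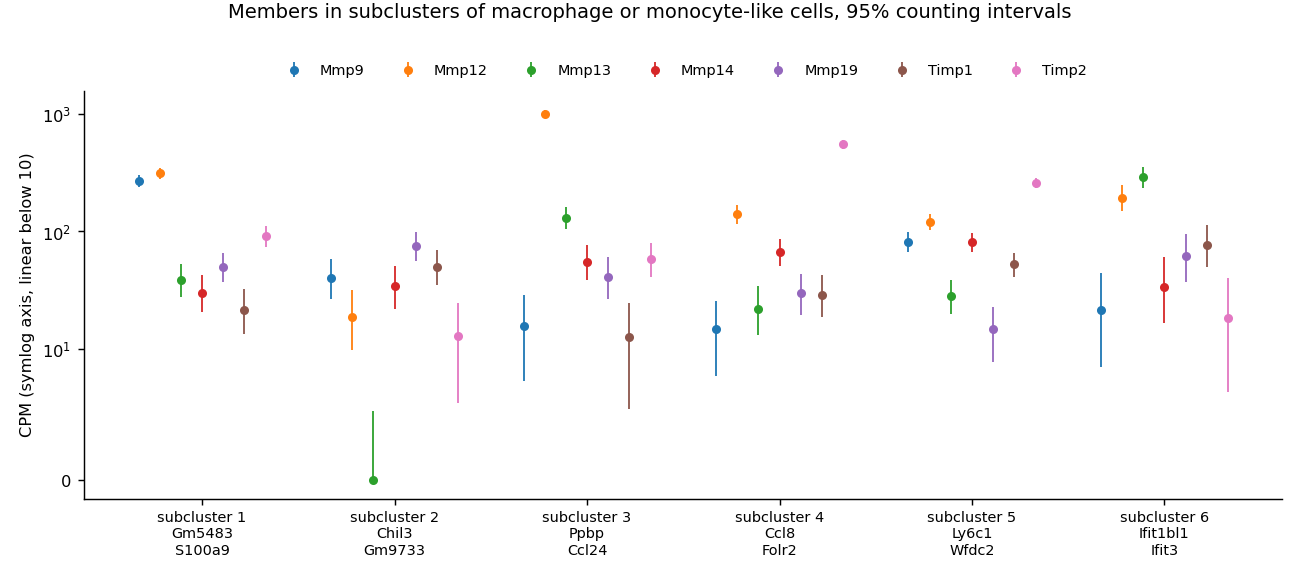
Levels of 7 members in the 6 subclusters of macrophage or monocyte-like cells (x axis, with 2 leading genes each), in CPM on an axis that is linear below 10 and logarithmic above, with 95% counting intervals and both libraries summed. Mmp12 reached 995 CPM in subcluster 3, Mmp13 288 CPM in subcluster 6 and Timp2 549 CPM in subcluster 4.

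Mmp19, a broadly expressed MMP, stood at 40.1 CPM in Smad3-WT macrophage or monocyte-like cells and at 55.5 CPM (32.9 to 87.7) in Smad3-WT fibroblast-like cells, so the 2 levels were not separated by their intervals. In Smad3-KO it stood at 92.3 CPM (63.9 to 129) in fibroblast-like cells and at 2 UMIs in macrophage or monocyte-like cells. Of its UMIs in filtered cells, 71.2% were in macrophage or monocyte-like cells in Smad3-WT and 70.8% in fibroblast-like cells in Smad3-KO. The gene overlaps Tmem198b on the other strand, which had 123 and 22 UMIs.

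Mmp2, gelatinase A, was a fibroblast transcript here. The 46 Smad3-WT and 67 Smad3-KO fibroblast-like cells held 402 and 544 of its UMIs, 1239.6 CPM (1121 to 1367) and 1476 CPM (1355 to 1605). These were 98.0% and 99.6% of the Mmp2 UMIs in filtered cells. The quotient was 1.19 (1.04 to 1.36), and 0.944 in cells thinned to 500 UMIs. In LLC carcinoma-like cells of Smad3-WT there were 0 UMIs in 326 cells, which allows a share of cells with a UMI of up to 0.920% (3 cells of 326, for counting error only), and neutrophil-like cells gave 2 and 1 UMIs.

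Mmp14, the membrane-type activator of proMMP-2, was also highest in fibroblast-like cells, at 376 CPM (312 to 449) in Smad3-WT and 556 CPM (483 to 638) in Smad3-KO, a quotient of 1.48 (1.18 to 1.87). In several groups it was above the range of the fibroblast markers, among them 2 large Smad3-WT groups. In Smad3-WT LLC carcinoma-like cells it stood at 92.1 CPM, in 51.5% of cells, which was 0.245 times its fibroblast-like level, where the 9 fibroblast markers stood at 0.000104 to 0.0963 times theirs. In Smad3-WT macrophage or monocyte-like cells it stood at 54.9 CPM, 0.146 times, against 0.000318 to 0.0253. The LLC carcinoma markers summed to 220 CPM there, against 1530 CPM in Smad3-WT LLC carcinoma-like cells. Subcluster 5 of the class, led by LLC carcinoma genes, held part of these Mmp14 UMIs. Its part in the level was not tested. Smad3-KO cells of the class stood at 52.9 CPM (17.2 to 123) from 5 UMIs, an interval that includes the Smad3-WT level. With cluster 9 in the class the Mmp14 quotient was 1.33 (0.855 to 1.99). Within clusters it was 0.988 (0.202 to 2.93) in cluster 3, 1.24 (0.146 to 4.78) in cluster 6 and 2.41 (1.33 to 4.26) in cluster 9. The last rests on 35 and 21 UMIs. The part of the mix of clusters was not tested. Neutrophil-like cells gave 4 and 7 UMIs of Mmp14. Among other groups, cluster 9 was above the fibroblast markers, at 0.0777 and 0.127 times against at most 0.0226 and 0.0206. Smad3-KO B cell-like cells were above too, at 0.0447 against at most 0.0231. In dendritic-like cells Mmp14 had 0 UMIs. Where the markers are near 0 few UMIs suffice, and in Smad3-WT T or NK-like cells 1 UMI of Mmp14 was above them.

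Timp1 was highest in fibroblast-like cells, with 225 UMIs in Smad3-WT, 694 CPM (606 to 791), and 742 in Smad3-KO, 2013 CPM (1871 to 2163). The quotient of 2.90 (2.50 to 3.38) made Timp1 the 1 member of 6 with at least 20 UMIs that was higher by 2 times or more in Smad3-KO fibroblast-like cells, where 9.07% of 4839 genes were. No member was lower, where 7.5% of genes were. The difference lay in few cells: 4 of the 67 Smad3-KO cells held 50% of its UMIs, 1 cell had 108, and in Smad3-WT 1 cell held 84 of 225. The share of cells with Timp1 was 67.4% in Smad3-WT and 47.8% in Smad3-KO, the other way round from the level, and the mean over cells of per-cell CPM gave a quotient of 1.29 and thinning to 500 UMIs 1.07.

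In LLC carcinoma-like cells of Smad3-WT Timp1 stood at 58.5 CPM, in 45.4% of cells. That was 0.0844 times its fibroblast-like level. It lay within the range of the 9 fibroblast markers, 0.000104 to 0.0963 times, and above their median of 0.000907. In neutrophil-like cells Timp1 rested on 8 and 2 UMIs, 4.86 CPM (2.10 to 9.58) and 1.58 CPM (0.191 to 5.70), in the class where Mmp9 was the leading member. Timp1 overlaps Syn1 on the other strand, which had 174 and 5 UMIs, and the use of strand in the counting was not given in the sources used here.

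Timp2 was found in several classes, but had 0 UMIs in the 21 Smad3-WT and 39 Smad3-KO dendritic-like cells. It was highest in fibroblast-like cells, at 789 CPM (696 to 892) in Smad3-WT and 871 CPM (778 to 972) in Smad3-KO, a quotient of 1.103 that was 2.11 in thinned cells, and stood at 237 CPM in Smad3-WT LLC carcinoma-like cells and 196 CPM (184 to 209) in Smad3-WT macrophage or monocyte-like cells. Smad3-KO macrophage or monocyte-like cells stood higher, at 296 CPM (197 to 428) from 28 UMIs. With cluster 9 in that class the Timp2 quotient was 0.818 (0.610 to 1.08), the other direction. Within each of these clusters Smad3-KO was higher. The quotient was 1.97 (1.27 to 2.92) in cluster 3, 4.01 (0.764 to 13.5) in cluster 6 and 1.61 (0.978 to 2.57) in cluster 9. That of cluster 6 rests on 3 Smad3-KO UMIs. The part of the mix of clusters in the joined quotient was not tested. Timp2 was also found in neutrophil-like cells, at 117 CPM (101 to 134) in Smad3-WT and 138 CPM (118 to 160) in Smad3-KO, a quotient of 1.18 (0.959 to 1.46). There it was 0.148 and 0.159 times its fibroblast-like level, where the fibroblast markers were at most 0.00107 and 0.00242 times theirs. Cep295nl, which overlaps Timp2 on the same strand, had 3 and 4 UMIs.

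**Figure D4:**
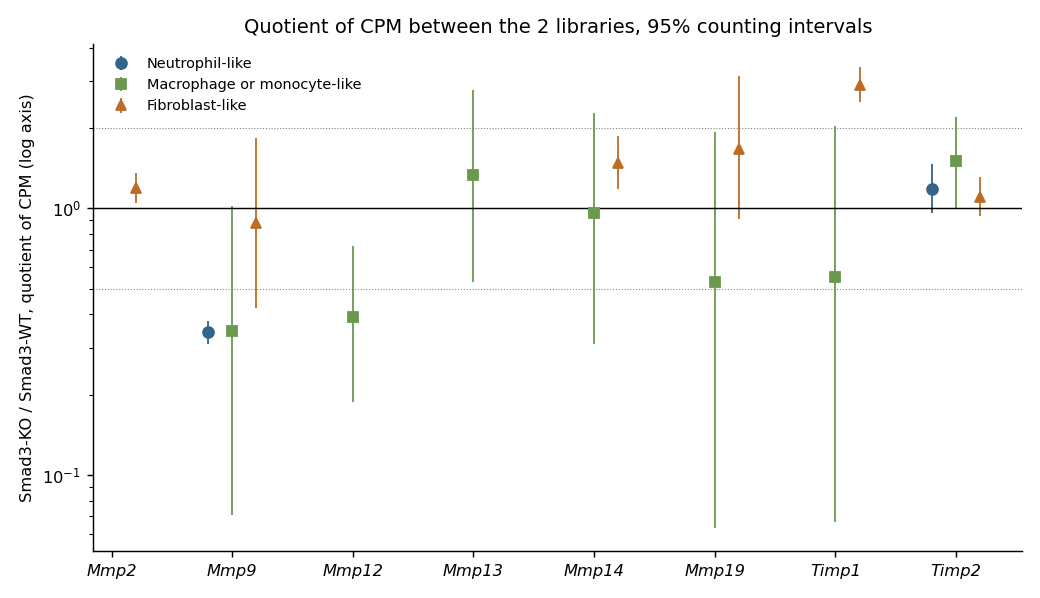
Quotient of CPM, Smad3-KO over Smad3-WT, on a log axis for members with at least 20 UMIs in a class and UMIs in both libraries, with 95% counting intervals, a solid line at 1 and dotted lines at 2 and 0.5. Mmp9 in neutrophil-like cells lay at 0.342 and Timp1 in fibroblast-like cells at 2.90.

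In neutrophil-like cells 2 members, Mmp9 and Timp2, had at least 20 UMIs, and 1 of them, Mmp9, was lower by 2 times or more in Smad3-KO, where 20.8% of 6044 genes were, and none was higher, where 7.38% were. Of the UMIs of the 8 members in each class that belonged to an Mmp gene, neutrophil-like cells had 90.7% in Smad3-WT (89.4 to 91.9) and 74.5% in Smad3-KO (71.1 to 77.7). Fibroblast-like cells had 54.5% (51.4 to 57.5) and 43.1% (40.8 to 45.3).

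**Figure D5:**
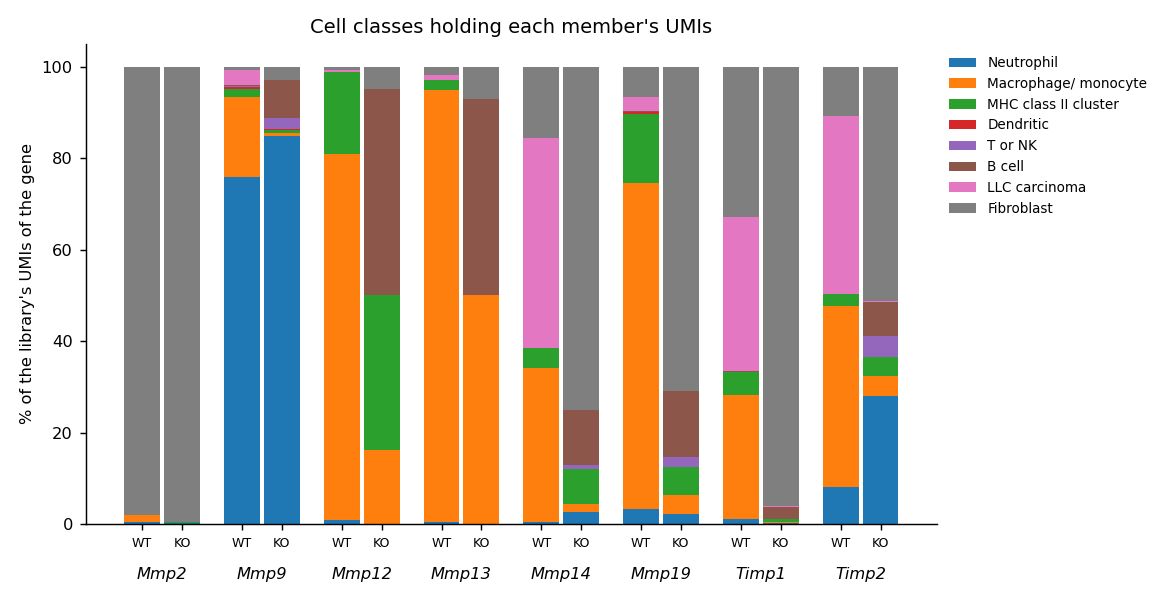
Share of a gene's UMIs in the filtered cells of each library (y axis, %) held by each group of cells (colours), in pairs of Smad3-WT and Smad3-KO bars for the 8 genes. Barcodes removed by the filter are left out, and in Smad3-WT they held 53.1% of the library's Timp1 UMIs. Fibroblast-like cells held 98.0% and 99.6% of the Mmp2 UMIs, and 32.9% of the Timp1 UMIs in Smad3-WT but 96.1% in Smad3-KO.

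Of the UMIs of the 8 members in filtered cells, fibroblast-like cells held 11.8% (11.1 to 12.4) in Smad3-WT and 63.5% (61.8 to 65.3) in Smad3-KO. They were 1.31% and 2.75% of the cells and held 2.66% and 8.89% of the UMIs of all genes. Neutrophil-like cells held 24.0% and 23.6% of the members' UMIs and 13.5% and 30.6% of the UMIs of all genes. Fewer cells of a type in a library and less RNA per cell of that type cannot be told apart in a level over all cells, so levels were compared within classes.

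Other genes of MMP activation, docking, clearance and inhibition were followed with a list of 22. In fibroblast-like cells 18 had at least 20 UMIs, 4 of them higher by 2 times or more in Smad3-KO and 1, Adam8, lower, where 9.07% and 7.5% of all genes were, with a median quotient of 1.33 against 0.9999 over 4839 genes. The higher genes included Lcn2, Serpinb2 and Serpine2. Lcn2, also a neutrophil marker here, was not higher in fibroblast-like cells alone. It stood at 133 and 1239 CPM in dendritic-like cells and at 19.2 and 282 CPM in cluster 9. Cluster 8 went the other way, at 1159 and 704 CPM, the latter from 4 UMIs. Serpinb2, an inhibitor of urokinase, stood at 321 and 1476 CPM, a quotient of 4.603 (3.73 to 5.73). In neutrophil-like cells 14 had at least 20 UMIs, 5 higher and 3 lower, where 7.38% and 20.8% of all genes were, with a median of 0.692 against 0.765 over all genes. Among them, Serpinb2 rested on 7 against 160 UMIs, and Adam17, the TNF-converting protease, stood at 66.8 and 204 CPM. Plaur, the urokinase receptor, was at 1949 and 1072 CPM, a quotient of 0.550 (0.516 to 0.586).

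Of the other 18 Mmp and Timp genes in the matrix, 4 had at least 20 UMIs in fibroblast-like cells, and 2 of those were higher by 2 times or more in Smad3-KO. The stromelysin Mmp3 stood at 586 and 569.8 CPM, a quotient of 0.973 (0.795 to 1.19). Timp3 stood at 98.7 and 336 CPM, a quotient of 3.41 (2.30 to 5.20), and Mmp23 at 89.4 and 185 CPM, a quotient of 2.06 (1.32 to 3.31). Of 10 matrix substrates, all 10 were measured in fibroblast-like cells, with 1, Col4a1, higher and 2, Spp1 and Thbs1, lower, where 9.07% and 7.5% of all genes were, and a median quotient of 1.28. In neutrophil-like cells 6 were measured, with 0 higher and 2, Fn1 and Sparc, lower, where 7.38% and 20.8% of genes were, and a median of 0.570. In macrophage or monocyte-like cells 9 were measured, with 0 higher and 8 lower, where 17.8% and 25.3% were, and a median of 0, from 46 Smad3-KO cells. Those cells held 94516 UMIs, against 4809296 in Smad3-WT, so 0 Smad3-KO UMIs says little for a gene near the minimum of 20. Subcluster 5 of the class, led by LLC carcinoma genes, held 136 Smad3-WT and 5 Smad3-KO cells and met 2 fibroblast markers. Its part in these values was not tested.

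Levels were also compared over 16 groups of a cluster and a library with at least 50 cells, by Pearson correlation of log2(CPM + 5) over genes with at least 200 UMIs, as a description in which groups share libraries and depth. The minimum left out the 46 Smad3-WT fibroblast-like cells and the 30 and 16 Smad3-KO cells of clusters 3 and 6. Fibroblast-like cells thus entered from Smad3-KO only. A high correlation for a gene found mainly there, such as Mmp2, rests on that single group. The most similar genes were Mfap5 for Mmp2 (0.99), Ankrd22 for Mmp9 (0.94), Trem2 for Mmp12 (0.97), Ccl12 for Mmp13 (0.86), Nav1 for Mmp14 (0.94), Ecm1 for Mmp19 (0.93), Ext1 for Timp1 (0.98) and Fam102b for Timp2 (0.85). The next were Dpt for Mmp2 and Mrc1 for Mmp12.

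In the authors' averages for their 13 clusters of all barcodes, whose column sums of 1311 make them comparable, Mmp9 was highest in cluster 10, at 2.40, where Camp was also highest at 10.1, and next in cluster 6, at 2.09, where Il1r2 was at 3.98. It was 0.138 in cluster 3, where Il1a was highest at 1.33. Mmp12 and Mmp13 were highest in cluster 5, at 0.666 and 0.139, where Arg1 was at 1.83. Mmp2, Mmp14, Timp1 and Timp2 were highest in cluster 2, at 0.150, 0.149, 0.219 and 0.368, where Col1a1 was at 1.63, and the carcinoma markers Wfdc2 and Krt8 were at 0.486 and 0.313. Mmp19 was highest in cluster 5, at 0.0838, and at 0.0133 in cluster 2. In cluster 11, where Krt8 was highest at 0.565 and Wfdc2 at 0.488, Mmp14 was at 0.0937, Timp1 at 0.0906 and Timp2 at 0.199, while Mmp2 was at 0.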

How the data were processed

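The deposited matrix holds raw UMI counts, which the authors made with Cell Ranger 3.0.2 (mm10 per the labels), as 5' tags of 2 libraries. A barcode's library was read from its suffix: scaling the UMI sums of each suffix to 1311, the median per barcode, gave the deposited average signal that the authors named for one library, within 3.58e-08. The authors' 13 cluster averages were used as deposited; their 30 columns of fold changes and p-values were not used, and 0 columns of averages were left out.

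The filter asked for 200 or more genes, less than 10% of UMIs from mitochondria and 500 to 20000 UMIs. Louvain clustering (scanpy 1.11.5, igraph 0.11.9; resolution 1) left out the Mmp and Timp genes and used 15 neighbours on 100 components of the 2000 most variable genes. A cluster was named when at least 3 fixed markers were in 10% of its cells at 2 times the level elsewhere, unless its 10 leading genes held more markers of another class; it was then left unnamed. Subclusters used 30 components and resolution 0.5. Doublets were not removed.

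Levels are summed UMIs scaled to 1000000, not divided by length, since a 5' tag counts a transcript once. Intervals are exact (Poisson for CPM, Clopper-Pearson for shares and for quotients, from the split of UMIs between the libraries). With 1 library per group no test was made; members with at least 20 UMIs were counted past 2 times, beside all genes. The ratio and its interval were tested on simulated Poisson counts, the model that the interval assumes. This checks the computation only. It cannot show how the interval holds for UMIs that lie in few cells, such as those of Timp1 and Mmp12. Named genes were the 8 members, 3 fixed lists, and for each member the genes most like it. The members and lists were chosen with earlier results of these data known. RefSeq promoter windows were given for 5 of the 8 members, and coordinates are those of GENCODE for GRCm38. Alternatives changed the cell filter, the clustering resolution, components and seed, the scaling, the UMI minimum and the deepest cells, and used thinned cells or a mean over cells; leaving out the Camp cluster, the mixed subclusters or the top cell, or adding the MHC class II cluster to its class, was chosen after seeing the data. The values of 1 listed gene are not reported here.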

Additional observations from a re-analysis of the deposited data

Results flagged for a closer look

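Barcodes that the filter on cells removed also held UMIs of the members, and the main comparisons above do not use them. The Mmp12 quotient with no filter on cells and the authors' averages of all barcodes do. In the 596 removed Smad3-WT barcodes, of which 382 had over 20000 UMIs, Timp2 stood at 168.7 CPM, Mmp14 at 70.2 CPM, Timp1 at 65.6 CPM, Mmp9 at 13.8 CPM, Mmp12 at 12.2 CPM, Mmp19 at 2.63 CPM, Mmp13 at 2.46 CPM and Mmp2 at 1.02 CPM. They held 51.2% of all Mmp14 UMIs of the library, 53.1% of Timp1 and 45.4% of Timp2, and 68.9% of the UMIs of the LLC carcinoma markers. In the 81 removed Smad3-KO barcodes Timp2 stood at 133 CPM, from 9 UMIs.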

How the results depend on the processing

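No paired analysis was possible because each group has 1 library. Of the 114 alternative values of the member ratios, 99 lay inside the counting interval of the reported one. The 114 include 14 for Mmp13, from 7 Smad3-KO UMIs, and 13 for Timp1 in neutrophil-like cells, from 8 and 2 UMIs. Intervals from so few UMIs are wide, and the alternatives share many cells, so the count of 99 says little about such ratios. For Mmp9 in neutrophil-like cells (0.342), the ratio was 0.302 without the 5% of cells with the most UMIs, 0.423 with median-of-ratios scaling, whose median ratio over genes was 0.809, and 0.165 without the Camp cluster. For Mmp12 it was 0.789 with no filter on cells and 0.768 with seed 2, and for Mmp13 it was 0 without the top cell and 0.392 with the MHC class II cluster in the class. In fibroblast-like cells thinned to 500 UMIs Mmp2 reversed to 0.944, and Mmp14 was 1.14, Timp1 1.07 and Timp2 2.11. Timp1 was 3.74 without the deepest 5% of cells, 3.86 without the top cell and 1.29 as a mean over cells, and Timp2 1.66 as a mean over cells. The cause was not tested.

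With at least 1 UMI, 1 member was higher and 5 were lower in neutrophil-like cells, where 17.6% and 31.5% of 13072 genes were, and 2 were lower in fibroblast-like cells, where 18.9% of 13576 were. In macrophage or monocyte-like cells 1 was higher and 1 lower with no filter on cells, where 19.4% and 32% of 10206 genes were, and 5 were lower with the MHC class II cluster. The share of the 8 members' UMIs in neutrophil-like cells of Smad3-WT was 15.3% with no filter, 17.4% with 500 UMIs and 20% mitochondrial UMIs as limits and 29.7% at resolution 0.1, where carcinoma-like cells formed no cluster, and 29.0% in Smad3-KO; for fibroblast-like cells of Smad3-WT it was 8.45% and 8.54% under the first 2. Depth limits the Smad3-KO macrophage or monocyte-like values, which rest on 46 cells.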
